A study of Mus musculus with 6 samples.

Results

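The genes described here are the collagens, taken as every gene whose symbol in the deposited FPKM tables reads Col, a number, a and a number. Of 44 genes with such symbols, 40 were analysed, of 46603 genes in the count tables, and 4 were not analysed here. They were read in 6 bulk RNA libraries of primary enamel organ cells, the dental epithelium that makes enamel, from lower incisors of C57BL/6 mice. The DKO libraries (replicates 1, 3 and 4) came from animals labelled as Stim1/2 knockouts and the WT libraries (replicates 1, 2 and 3) from wild types. The driver of the deletion, the age of the mice and whether animals were pooled are not stated in the labels. STIM1 and STIM2 sense the calcium of the endoplasmic reticulum and open calcium channels of the plasma membrane.

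Collagens are matrix proteins whose chains wind around each other into a rod through repeated glycine-led triplets. Fibrillar collagens (here types II, III, V, XI, XXIV and XXVII) assemble into the fibrils of connective tissue, where the minor types V and XI set how fibrils start and how thick they grow. Basement membrane collagens are type IV, which forms the sheet under epithelia and around vessels, and types XV and XVIII, which carry sugar chains and sit at its edge. The other types decorate fibrils, form beaded filaments, make short-chain networks or span the plasma membrane. In a tooth, epithelium, dental and follicular mesenchyme, vessels and nerve sheaths each have collagens of their own.

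Total counts ran from 18609759 to 22829411 per library. Whole-gene Stim1 counts stood at 362 to 492 normalised counts per 1e6 (CPM) in WT and 107 to 143 in DKO, and Stim2 at 229 to 310 and 105 to 136, so the libraries match their labels. The tissue label was matched by ameloblast genes, with Ambn from 37564 to 90060 CPM and by the epithelial keratin gene Krt14, with 3747 to 4564 CPM in the WT libraries and 2851 to 3028 CPM in the DKO libraries (adjusted p = 0.147). Markers of other cell types were detected in every library. The summed level of 12 mesenchyme and fibroblast markers was 810 to 1274 CPM in the WT libraries and 1179 to 1455 CPM in the DKO libraries. That of 10 endothelium markers was 238 to 313 and 338 to 385 CPM, and that of 8 pericyte and smooth muscle markers 494 to 696 and 762 to 835 CPM. Sums of 8 leukocyte markers (99.5 to 133 and 141 to 247 CPM) and 9 odontoblast and osteoblast markers (428 to 537 and 542 to 718 CPM) were likewise read. Apart from the mesenchyme list, these 4 lists did not overlap between the groups and were higher in every DKO library. In bulk RNA, a change in the number of cells of a type and a change of RNA per cell cannot be told apart.

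Per transcript length, Col3a1, the chain of type III collagen, was by far the most abundant of the 40 genes. Its deposited FPKM (fragments per kilobase and 1e6 fragments) was 505, 278 and 578 in WT 1, 2 and 3 and 761, 499 and 597 in DKO 1, 3 and 4. Next in WT came Col4a1 and Col5a2, with mean levels of 83.0 ± 10.9 and 82.0 ± 17.2 FPKM, then Col6a2, Col6a1 and Col4a2 at 65.3 ± 26.3, 61.2 ± 23.0 and 58.3 ± 7.66 FPKM (SD, n = 3). The order below Col3a1 was not sharp: in 33 pairs of neighbours the WT ranges overlapped, and in 6 they did not. In WT, 15 genes had a mean of at least 10 FPKM, and 12 had a mean under 1 FPKM. Those 12 included the cartilage fibril gene Col2a1, the growth plate gene Col10a1, the type IV chain genes Col4a3 to Col4a6, and Col19a1, which was listed at 0 in all WT libraries.

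**Figure D1:**
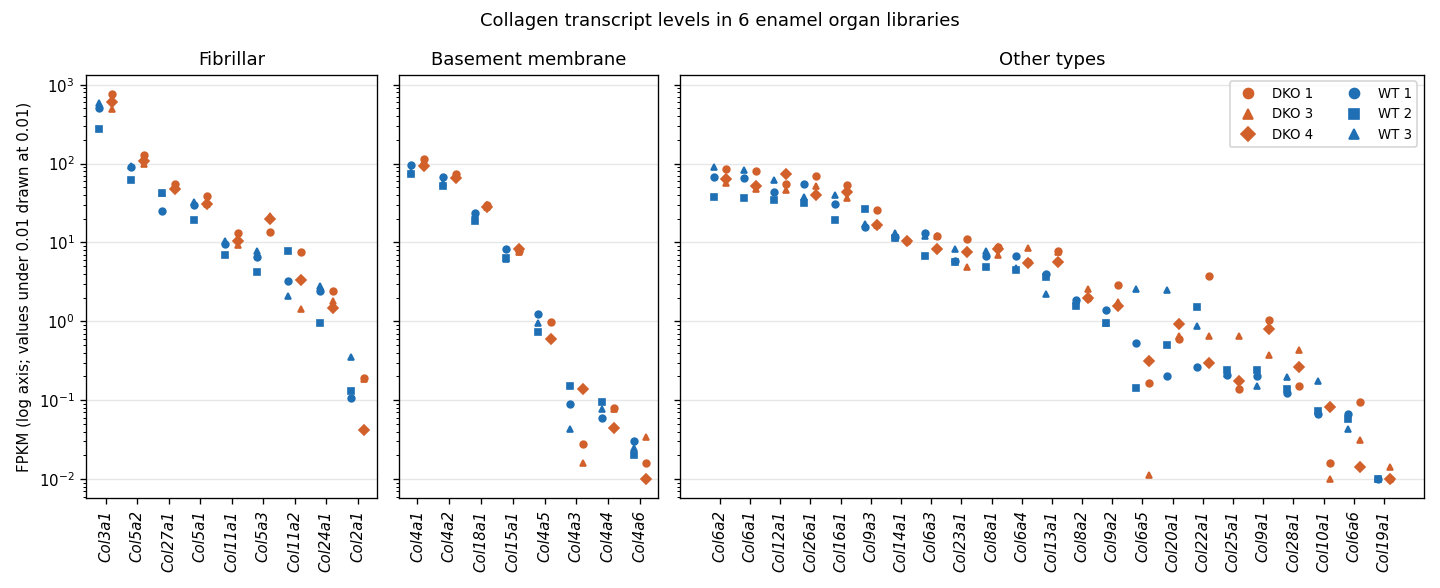
FPKM of each of the 40 collagen genes (log axis) in WT (blue) and DKO (orange) libraries, 1 symbol per library, with genes ordered by mean WT level within each class. Col3a1 lies between 278 and 761 FPKM, and the WT and DKO symbols of Col5a3 do not overlap.

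Fibrillar genes made up 56.1, 52.5 and 58.2% of the summed collagen FPKM in WT 1, 2 and 3 and 60.6, 57.6 and 60.3% in DKO 1, 3 and 4. Basement membrane genes held 12.6 to 19.0% in WT and 13.4 to 17.3% in DKO, and the other types 27.7 to 29.2% and 25.2 to 26.0%. The shares of the fibrillar and basement membrane genes overlapped between the groups, while that of the other types was lower in every DKO library. In summed FPKM the other types overlapped, at 332, 229 and 387 in WT 1, 2 and 3 and 437, 313 and 343 in DKO 1, 3 and 4. Col3a1 alone held 34.6 to 43.7% of the summed collagen FPKM in WT and 40.2 to 45.3% in DKO. These shares leave out the 4 genes not analysed.

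DKO was compared with WT over all genes by edgeR's quasi-likelihood test with Benjamini-Hochberg adjustment, and a gene is called at an adjusted p below 0.05. Of the 40 collagen genes 35 passed the filter on low counts, and 1 of the 35, Col5a3, was called. Over all 14721 tested genes 1.04% were called, 0.734% higher and 0.306% lower. Of the 35, 27 had a log2 fold change above 0, with a median of 0.32, where 48.7% of all tested genes lay above 0 and their median was -0.01. In 10 genes every DKO library lay above every WT library, which held for 11.4% of all tested genes, and in 1 gene, Col14a1, every DKO library lay below, which held for 11.8%. At an unadjusted p below 0.05 there were 14 of the 35, where 18.0% of all genes passed. Of these 12 were higher and 2 lower, with 8.67 and 9.37% of all genes.

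**Figure D2:**
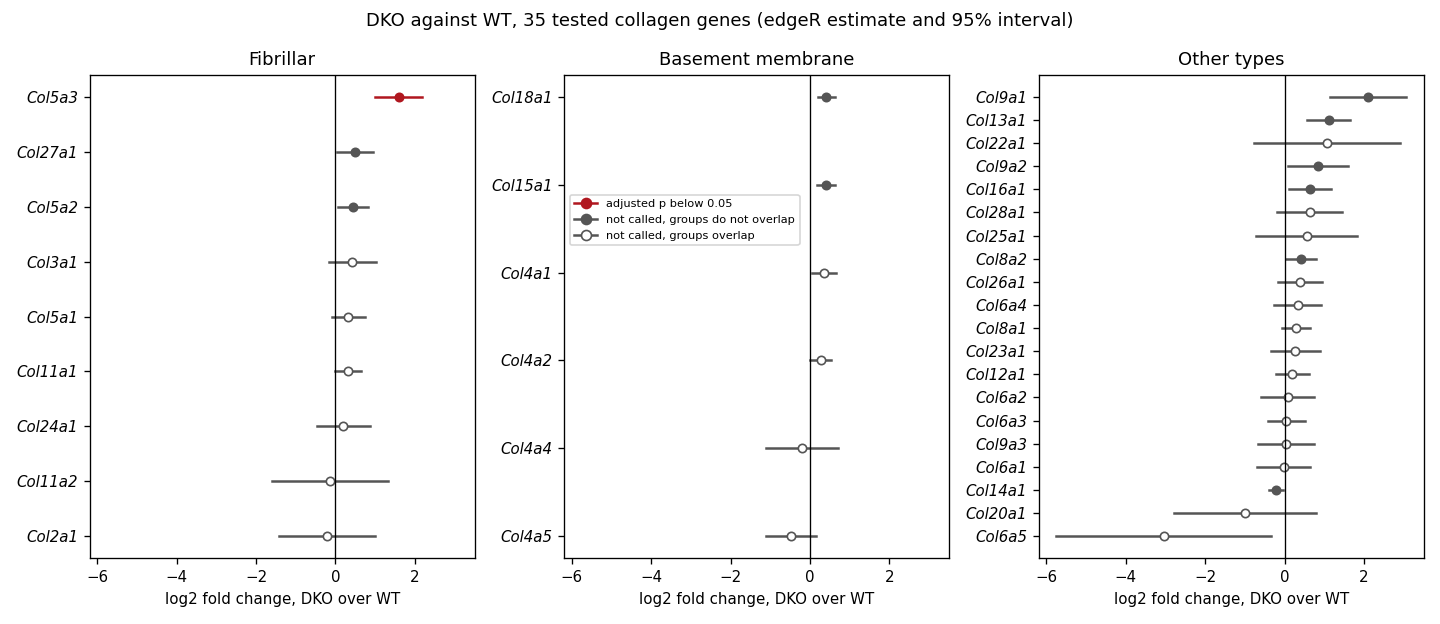
log2 fold change of DKO over WT with its 95% interval (lines) for the 35 tested collagen genes by class. Red marks the gene called by edgeR, Col5a3 at 1.59, and filled symbols mark genes whose groups do not overlap.

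Among the 9 fibrillar genes, all tested, Col5a3 rose and 8 were not called, with a median log2 fold change of 0.32 over the 9. Type V collagen is built from the chains of Col5a1, Col5a2 and Col5a3 and is buried inside larger fibrils. The proximal promoters of Col5a3, its partner Col5a1 and the abundant Col3a1 are shown because the first gene was called and the others were not. Each run is the 250 bases before the RefSeq start on GRCm38.p6, at chr9:20815068-20815317 (minus strand), chr2:27886175-27886424 (plus) and chr1:45311288-45311537 (plus), written along the gene. Capitals mark matches on both strands to the TATA box (letters TATAAA), the CCAAT box (letters CCAAT), the GC box (letters GGGCGG), the AP-1 site (letters TGANTCA), the core of NFAT sites (letters GGAAA) and the CRE core (letters TGACG).
Col5a3: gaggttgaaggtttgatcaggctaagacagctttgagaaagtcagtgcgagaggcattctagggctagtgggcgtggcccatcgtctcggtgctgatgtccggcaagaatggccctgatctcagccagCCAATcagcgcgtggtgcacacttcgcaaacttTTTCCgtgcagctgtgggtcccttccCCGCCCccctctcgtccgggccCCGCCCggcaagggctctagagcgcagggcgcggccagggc
Col5a1: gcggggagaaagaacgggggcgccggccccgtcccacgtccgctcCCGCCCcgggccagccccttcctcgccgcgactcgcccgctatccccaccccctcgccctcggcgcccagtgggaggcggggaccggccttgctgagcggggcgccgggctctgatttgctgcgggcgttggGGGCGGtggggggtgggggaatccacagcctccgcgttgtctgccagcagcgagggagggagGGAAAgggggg
Col3a1: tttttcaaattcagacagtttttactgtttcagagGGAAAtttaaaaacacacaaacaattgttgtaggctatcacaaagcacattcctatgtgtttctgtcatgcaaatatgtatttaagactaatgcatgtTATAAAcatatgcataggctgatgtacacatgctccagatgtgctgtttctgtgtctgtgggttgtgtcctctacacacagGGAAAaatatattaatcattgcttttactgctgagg
The Col5a3 window held 1 CCAAT box, starting 122 bases before the start, 2 GC boxes at 63 and 41 bases and 1 NFAT core at 89 bases. The Col5a1 window held 2 GC boxes and 1 NFAT core, and the Col3a1 window 1 TATA box and 2 NFAT cores but no GC box. Their GC contents were 62.8, 76.4 and 35.2%. No window of the 3 held an AP-1 site or CRE core in these letters. Of 32851 promoter windows of the same length, 33.8% held the CCAAT box, 32.7% the GC box, 55.6% the NFAT core, 12.4% the TATA box, 6.75% the AP-1 site and 17.8% the CRE core. Of the 40 collagen genes 32 had an entry in the promoter table. In their 35 windows 20 held the GC box, 17 the NFAT core, 10 the CCAAT box, 4 the TATA box, 3 the CRE core and 1 the AP-1 site. The matches overlapped no other motif in the Col5a3 window.

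Col5a3 (ENSMUSG00000004098, GRCm38 chromosome 9, 20770050 to 20815067, minus strand) gave 42.0, 28.0 and 51.0 CPM for WT 1, 2 and 3 and 86.4, 148 and 131 CPM for DKO 1, 3 and 4. The lowest DKO library, DKO 1, was above the highest WT library, WT 3. The rise was 3.02-fold, from 40.3 ± 11.6 to 122 ± 31.8 CPM (SD, n = 3 each), a log2 fold change of 1.59 and an SE of 0.26 (edgeR adjusted p = 0.0403). The exact two-sided permutation p over libraries was 0.1, the smallest that 3 against 3 allow. The call was lost without DKO 3, DKO 4, WT 1 or WT 3 (edgeR adjusted p = 0.127, 0.149, 0.0869 and 0.0686). It was also lost on genes with a mean of at least 50 counts (0.05003) and by limma on FPKM (0.0635 to 0.199), while DESeq2 gave 1.34e-08.

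The partner chains were not called, and the difference between the chains was not tested. Col5a2 was at 631, 443 and 650 CPM in the WT libraries and 876, 709 and 752 CPM in the DKO libraries, with no overlap and a log2 fold change of 0.44 and an SE of 0.17 (adjusted p = 0.225). Col5a1 was at 249, 168 and 272 CPM in the WT libraries and 323, 275 and 262 CPM in the DKO libraries, with overlap and a log2 fold change of 0.32 and an SE of 0.18 (adjusted p = 0.399). Per length, Col5a3 was the rarest of the chains. It held 5.11, 4.91 and 5.88% of the summed type V FPKM in WT and 7.48, 14.6 and 12.7% in DKO. The DKO libraries differed among themselves here, with DKO 1 highest in Col5a1 and Col5a2 and lowest in Col5a3. The ratio of Col5a1 to Col5a2, stayed between 0.288 and 0.345 in all 6 libraries.

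**Figure D3:**
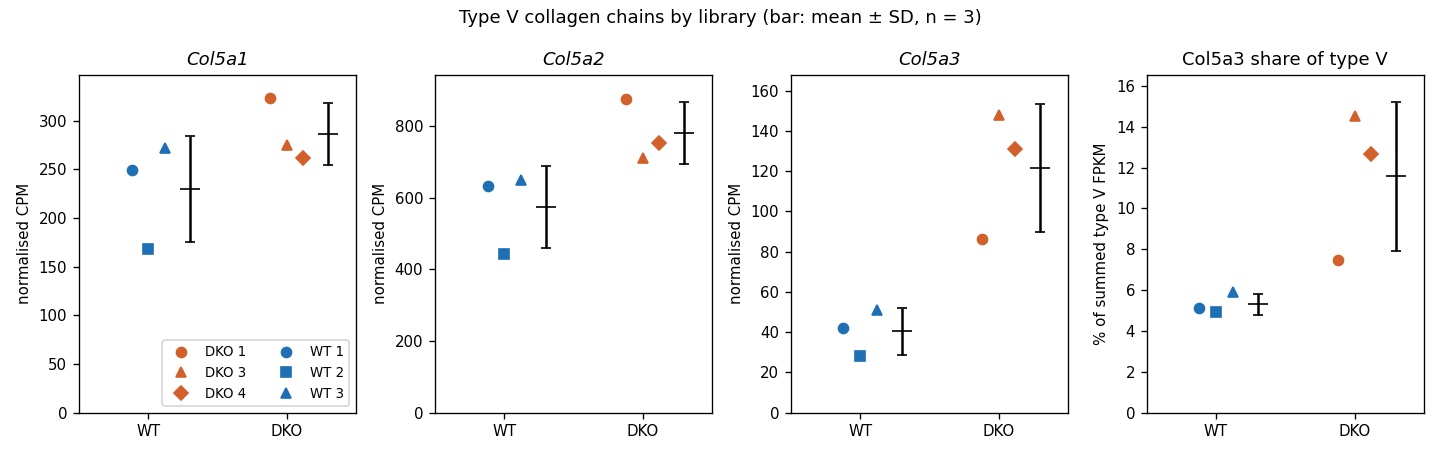
Normalised CPM of Col5a1, Col5a2 and Col5a3 and, at right, the share of Col5a3 in the summed type V FPKM, by library, with bars for mean ± SD (n = 3). The Col5a3 share is 4.91 to 5.88% in WT and 7.48 to 14.6% in DKO.

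Of the remaining fibrillar genes, Col27a1, a type XXVII chain known from cartilage and tooth, had 158, 269 and 265 CPM in the WT libraries and 331, 345 and 292 CPM in the DKO libraries. Its groups did not overlap, with WT 1 well below the other WT libraries, and its log2 fold change was 0.49 with an SE of 0.20 (adjusted p = 0.251). Col3a1 was at 2457, 1433 and 2868 CPM in the WT libraries and 3529, 2632 and 2895 CPM in the DKO libraries, with overlap and a 95% interval of the log2 fold change from -0.17 to 1.02. Col11a1, the main type XI chain gene here, stood at 60.9 ± 8.90 CPM in the WT libraries and 75.6 ± 12.2 CPM in the DKO libraries (SD, n = 3 each; adjusted p = 0.304). Its partner Col11a2 did not keep step with it: it reached 30.7 CPM (WT 2) and 27.0 CPM (DKO 1) but lay at 6.06 to 11.9 CPM in the other libraries. The ratio of Col11a1 to Col11a2 in FPKM accordingly ran from 0.886 in WT 2 to 6.38 in DKO 3. Col24a1 was at 7.51 to 16.1 CPM in the WT libraries and 11.2 to 18.0 CPM in the DKO libraries, and Col2a1, the main cartilage collagen gene, at most at 0.953 CPM.

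Of the 8 basement membrane genes 6 were tested, and edgeR called 0 of them. An unadjusted p below 0.05 was found for 4, against 18.0% of all tested genes, and DESeq2 called 2. Both called by DESeq2 were of the sugar-bearing types. Col18a1 (chromosome 10, 77052178 to 77166548, minus strand), whose C-terminal fragment is endostatin, had 121, 97.5 and 116 CPM in the WT libraries and 151, 150.2 and 143 CPM in the DKO libraries. Its log2 fold change was 0.41 with an SE of 0.09 (95% interval 0.20 to 0.62, edgeR adjusted p = 0.0887, DESeq2 adjusted p = 0.00505). Col15a1, its closest relative, had 35.2, 27.5 and 30.1 CPM in the WT libraries and 39.8, 41.5 and 41.1 CPM in the DKO libraries, with a log2 fold change of 0.40 and an SE of 0.10 (edgeR adjusted p = 0.108, DESeq2 adjusted p = 0.0288). In both genes the 3 DKO libraries lay close together and above all WT libraries. The endothelium and pericyte marker sums given above were also higher in every DKO library, and their part in this was not tested. Of the endothelium markers 10 of 10 lay above 0, and of the pericyte and smooth muscle markers 7 of 8, with 0 called by edgeR in either list (3 and 4 at an unadjusted p below 0.05, 2 and 2 by DESeq2). Over all genes DESeq2 called 6.00%, 3.31% higher and 2.69% lower, and 6 collagen genes higher and 0 lower.

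The major type IV chains Col4a1 and Col4a2, which form the common network of all basement membranes, gave similar values. Col4a1 was at 669, 536 and 556 CPM in the WT libraries and 783, 791 and 664 CPM in the DKO libraries (log2 fold change 0.35, SE 0.13, adjusted p = 0.214). Col4a2 was at 441, 350.4 and 379 CPM in the WT libraries and 487, 482 and 437 CPM in the DKO libraries (0.26, SE 0.11, adjusted p = 0.271). In both genes DKO 4 lay just below WT 1, so the groups overlapped. These genes stand head to head on chromosome 8, with annotated starts 21 bases apart and exons that overlap by 22 bases. The ratio of Col4a1 to Col4a2 in FPKM was 1.40 to 1.45 in WT and 1.45 to 1.55 in DKO, the narrowest relative spread of the partner ratios computed, and higher in every DKO library.

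The minor type IV chains were rare. Col4a5, which replaces the major chains in kidney and some epithelial membranes, was at 7.59, 4.65 and 6.01 CPM in the WT libraries and 5.97, 3.67 and 3.48 CPM in the DKO libraries, with a log2 fold change of -0.48 and an SE of 0.27 (adjusted p = 0.401). Its head-to-head neighbour on chromosome X, Col4a6, whose start lies 1309 bases away, had at most 5 counts in any library and was not tested. Col4a4 had 9 to 23 counts per library and a log2 fold change of -0.20 and an SE of 0.39, which turned to 0.04 without DKO 4. Col4a3, whose start is 72 bases from that of Col4a4, had 18, 11 and 10 counts in WT and 5, 3 and 7 in DKO and was not tested. Its exons overlap a transcript of the other strand along 5.65% of their length, and libraries of this kind do not mark the strand.

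Of the 23 genes of other types 20 were tested and edgeR called 0. At an unadjusted p below 0.05 there were 7, 5 of them higher in DKO, against 18.0% of all tested genes. DESeq2 called 3, against 6.00% of all genes. The 2 genes nearest to the threshold were Col9a1 and Col13a1. Col9a1, a chain of the fibril-associated type IX of cartilage, was at a low level in WT. It had 15, 10 and 11 counts there, or 0.636, 0.485 and 0.480 CPM, and 64, 24 and 47 counts, or 3.21, 1.22 and 2.51 CPM, in DKO. The log2 fold change was 2.10 with an SE of 0.41 (edgeR adjusted p = 0.0641, DESeq2 adjusted p = 0.00142). All DKO libraries lay above all WT libraries. The type IX partners differed. Col9a2 was at 2.35 to 4.20 CPM in the WT libraries and 4.23 to 8.43 CPM in the DKO libraries (0.84, SE 0.33, adjusted p = 0.233). Col9a3, the abundant chain, had 33.3, 62.1 and 33.3 CPM in the WT libraries and 61.0, 34.2 and 36.3 CPM in the DKO libraries (0.03, SE 0.30, and -0.28 without DKO 1). Per length Col9a3 exceeded Col9a1 77.5- to 114-fold in WT and 21.1- to 45.0-fold in DKO. Exons of Col9a3 overlap the gene Tcfl5 of the other strand along 6.07% of their length. Of 6 cartilage markers 2 were tested, with differences of opposite sign and 0 called. Acan averaged 0.281 CPM over WT and 0.947 CPM over DKO (log2 fold change 1.72, adjusted p = 0.0741), and Sox9 averaged 44.0 CPM over WT and 36.5 CPM over DKO (-0.27, adjusted p = 0.461). In Acan every DKO library lay above every WT library, which held for 11.4% of all tested genes, while Sox9 overlapped. Of the untested markers, Matn1 was at 0 in every library, and Comp and Chad overlapped between the groups. Matn3, near the floor, was at 0 to 0.0485 CPM in the WT libraries and 0.102 to 0.251 CPM in the DKO libraries. The summed level of the list overlapped, at 37.0 to 57.3 and 34.1 to 40.4 CPM. This sum was almost wholly Sox9, at 36.0 to 56.6 CPM in the WT libraries and 32.6 to 38.5 CPM in the DKO libraries. It therefore says little about the other cartilage markers. The part of cartilage cells in the Col9a1 values was not tested.

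Col13a1 (chromosome 10, 61838236 to 61979108, minus strand) encodes a collagen that spans the plasma membrane at cell and matrix contacts. It stood at 11.8, 10.1 and 6.19 CPM in the WT libraries and 21.6, 22.2 and 17.0 CPM in the DKO libraries, 2.16-fold higher without overlap. Its log2 fold change was 1.11 with an SE of 0.23 (95% interval 0.57 to 1.65, edgeR adjusted p = 0.0723, DESeq2 adjusted p = 0.000314). Without a low-count filter edgeR called Col13a1, Col9a1 and Col18a1 beside Col5a3 (adjusted p = 0.00997, 0.0143 and 0.0437 for the first 3). The other transmembrane collagens overlapped between groups. Col23a1 had a log2 fold change of 0.27 and an SE of 0.27 (and -0.03 without DKO 1) and Col25a1, linked to motor nerve endings, of 0.55 (SE 0.54), the latter through DKO 3 at 3.57 CPM against at most 1.27 CPM elsewhere (log2 fold change -0.40 without DKO 3).

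The fibril-associated genes of higher level lay on different sides of 0. Col16a1 was at 141, 93.8 and 168 CPM in the WT libraries and 257, 174 and 198 CPM in the DKO libraries, with a log2 fold change of 0.64 and an SE of 0.22 (edgeR adjusted p = 0.198, DESeq2 adjusted p = 0.0483). Its groups were separated by a narrow gap, from WT 3 to DKO 3. Col14a1, which binds the surface of mature fibrils, was the 1 tested gene with all DKO libraries below all WT libraries. It had 54.8, 55.6 and 60.1 CPM in the WT libraries and 49.8, 51.0 and 45.4 CPM in the DKO libraries (log2 fold change -0.22, SE 0.08, edgeR adjusted p = 0.191). Col12a1, its close relative in tension-bearing tissue, overlapped at 409 ± 91.1 and 468 ± 65.9 CPM (SD, n = 3 each; adjusted p = 0.611).

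Type VI collagen, which forms beaded filaments around cells, gave differences near 0 for its major chains. Col6a1 was at 280.2, 160 and 351 CPM in the WT libraries and 338, 214 and 227 CPM in the DKO libraries, and Col6a2 at 282, 161 and 375 and at 353, 243 and 266 CPM. In both, the WT libraries spread more widely than the groups differed, with WT 2 lowest and WT 3 highest of all 6. The log2 fold changes were -0.02 (SE 0.29, 95% interval -0.70 to 0.65) for Col6a1, 0.08 (SE 0.29, -0.59 to 0.74) for Col6a2 and 0.04 (SE 0.20, -0.42 to 0.50) for Col6a3. These intervals leave room for changes of either direction, and the sign of each turned when single libraries were left out. The ratio of Col6a1 to Col6a2, which lie on chromosome 10 with 85161 bases between them, stayed between 0.825 and 0.964. Col6a4, a chain lost as a working gene in humans, had 26.9 to 42.6 CPM in the WT libraries and 30.0 to 56.3 CPM in the DKO libraries. Its neighbour Col6a5 was uneven, at 5.22, 1.26 and 25.4 CPM in the WT libraries and 1.003, 0.102 and 2.78 CPM in the DKO libraries (log2 fold change -3.04, SE 1.16, adjusted p = 0.229, and -1.33 without WT 3).

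The short-chain and remaining types had lower or uneven levels, and edgeR called none of them. Col8a2, a chain of the hexagonal sheets under endothelia, was at 7.17, 7.27 and 8.24 CPM in the WT libraries and 9.03, 12.2 and 8.99 CPM in the DKO libraries, without overlap (log2 fold change 0.41, SE 0.16, adjusted p = 0.237). Its partner Col8a1 was at 27.0 to 41.8 and 38.5 to 46.1 CPM and overlapped. Col26a1 was well expressed, at 111 ± 33.0 CPM in the WT libraries and 146 ± 37.0 CPM in the DKO libraries (SD, n = 3 each; adjusted p = 0.435). Single libraries stood out for rare genes. Col22a1, a collagen of muscle and tendon junctions, was at 17.2 CPM in DKO 1 and 1.87 to 6.49 CPM elsewhere, and Col20a1 was at 13.5 CPM in WT 3 and 1.40 to 4.17 CPM elsewhere, and each log2 fold change (1.07 and -0.99) changed sign without that library (-0.39 and 0.52). The summed level of 6 skeletal muscle markers was 279 CPM for WT 3, 149 CPM for DKO 1 and 54.9 to 121 CPM elsewhere, but Col22a1 was at 2.57 CPM in WT 3 and Col20a1 at 1.81 CPM in DKO 1. The second-highest library for Col22a1 was WT 2. The odontoblast marker Dspp, named after its values were seen, had 110 CPM for DKO 1, 94.9 CPM for WT 2 and 3.01 to 21.8 CPM elsewhere. Other markers of its list of 9 did not share this pattern. Ibsp, for example, had 186 CPM for DKO 1 but 19.0 CPM for WT 2. The summed list was at 718 CPM for DKO 1, 537 CPM for WT 2 and 428 to 546 CPM elsewhere. The part of these cell types in the values was not tested. Col28a1 reached at most 1.58 CPM, with a log2 fold change of 0.63 and an SE of 0.35 (adjusted p = 0.397). Col10a1, Col6a6 and Col19a1 had at most 13, 16 and 1 counts in a library and were not tested.

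The libraries themselves ranked alike for many collagens. WT 2 was the lowest of the 3 WT libraries in 20 of the 35 tested genes, and DKO 1 the highest of the 3 DKO libraries in 21. Summed fibrillar FPKM was 422 in WT 2, against 673 and 770 in WT 1 and WT 3, and 1018 in DKO 1, against 715 and 818 in DKO 3 and DKO 4. The mesenchyme and fibroblast markers had the same lowest and highest libraries, with sums of 810 CPM in WT 2 and 1455 CPM in DKO 1. The next sum was that of DKO 4, 1387 CPM. Lum made up 553 CPM of the DKO 1 sum and 483 CPM of the DKO 4 sum. Without Lum, the sum of DKO 1 would not exceed that of DKO 4. Lum, Dcn and Fn1 also belong to the list of fibril-associated matrix genes described below. The marker sum is therefore not a readout of cell type independent of matrix genes. None of the 11 tested mesenchyme markers was called by edgeR. An unadjusted p below 0.05 was found for 1, against 18.0% of all tested genes, and DESeq2 called 1, against 6.00%. All 11 lay above 0, where 48.7% of all tested genes did. Their median log2 fold change of 0.32 equalled that of the collagens at this precision. The part of such cells in the collagen values was not tested. Without WT 2 the collagen median was 0.24, with 25 of 35 genes above 0, and without DKO 1 it was 0.23, with 23 of 36.

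**Figure D4:**
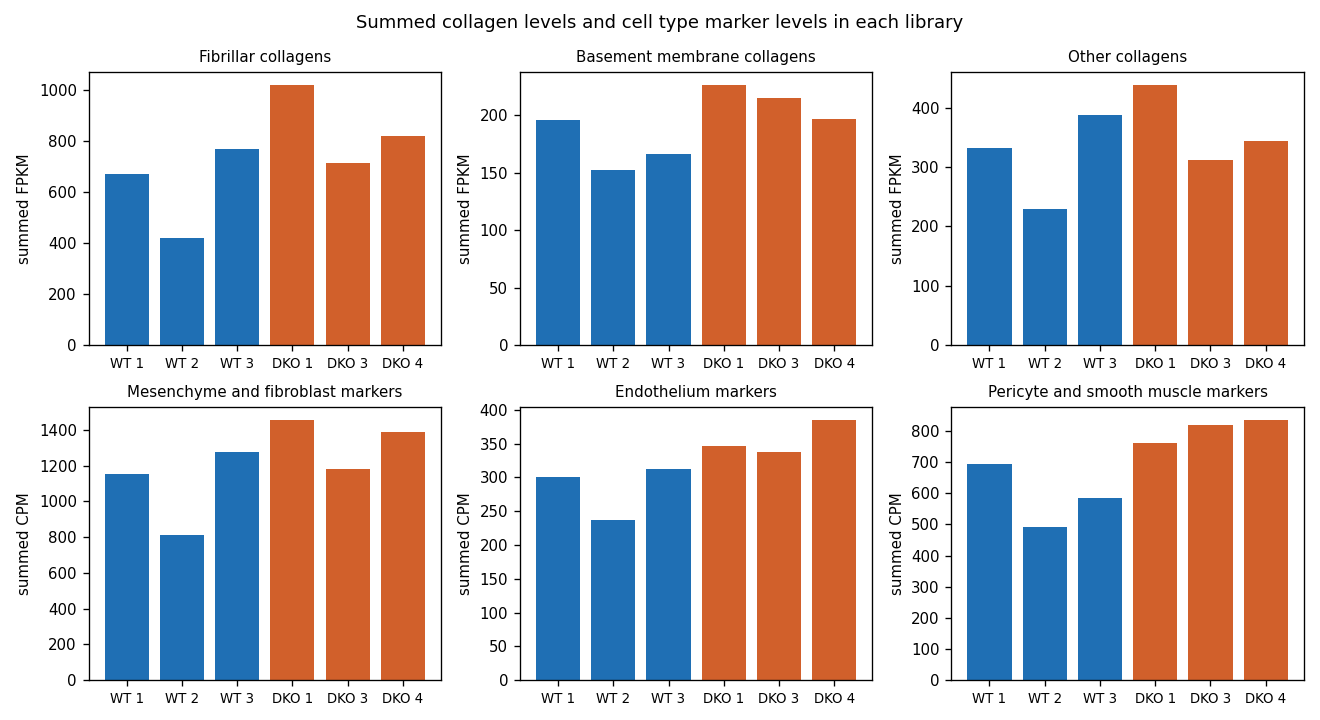
Bars give the summed FPKM of the 3 collagen classes (top) and the summed CPM of 3 marker lists (bottom) in each library, WT in blue and DKO in orange. WT 2 is lowest and DKO 1 highest for fibrillar collagens (422 and 1018 FPKM) and for mesenchyme markers (810 and 1455 CPM).

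Genes that act on collagen were read from 7 lists with 105 genes, of which 100 were tested. In all, 2 rose and 1 fell by edgeR, where 1.04% of all tested genes were called, and 97 were not called. Their median log2 fold change was 0.20, against -0.01 over all tested genes. Within the cell, chains are hydroxylated, folded and exported before they assemble. Of 24 such enzymes and chaperones 1 rose, Creb3l1 (chromosome 2, 91982328 to 92024502, minus strand), a membrane-bound transcription factor that switches on collagen and secretory genes. It went from 33.8, 27.5 and 33.9 CPM in WT to 49.9, 57.4 and 61.3 CPM in the DKO libraries, 1.77-fold higher without overlap (log2 fold change 0.82, SE 0.11, edgeR adjusted p = 0.0216). The call was lost without DKO 3, DKO 4 or WT 3 (0.0996, 0.101 and 0.0656) and by limma on FPKM (0.0509 to 0.169). The collagen chaperone gene Serpinh1, at 740.1 ± 28.1 CPM in the WT libraries and 886 ± 84.2 CPM in the DKO libraries, and P4hb, a subunit of prolyl hydroxylase, at 613 ± 11.8 and 745 ± 11.2 CPM (SD, n = 3 each), did not overlap between groups and were not called (adjusted p = 0.265 and 0.167). The list median was 0.21, with 19 of 24 above 0. At an unadjusted p below 0.05 there were 10 of the 24, all higher in DKO, against 18.0% of all tested genes. DESeq2 called 4, against 6.00% of all genes. In 9 every DKO library lay above every WT library, which held for 11.4% of all tested genes.

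Outside the cell, propeptides are cut off and chains are cross-linked. Of 8 propeptide genes edgeR called 0 (3 at an unadjusted p below 0.05, against 18.0% of all tested genes, and 0 by DESeq2, against 6.00%). Among them the protease gene Bmp1 stood at 302 ± 27.9 CPM in the WT libraries and 368 ± 32.1 in DKO, and Pcolce, its enhancer, at 77.3 ± 24.3 and 102 ± 19.1 CPM (SD, n = 3 each; adjusted p = 0.230 and 0.423). Of 7 cross-linking genes 1 rose, where 0.734% of all tested genes rose. At an unadjusted p below 0.05 there were 3, against 18.0% of all tested genes, and DESeq2 called 1, against 6.00%. In 4 every DKO library lay above every WT library, which held for 11.4% of all tested genes. Loxl2 (chromosome 14, 69609068 to 69695834, plus strand), a lysyl oxidase that acts on type IV collagen among others, went from 50.3, 48.2 and 45.3 CPM in WT to 77.5, 78.5 and 64.3 CPM in the DKO libraries. This was 1.53-fold higher without overlap (log2 fold change 0.62, SE 0.09, edgeR adjusted p = 0.0346). Omission of WT 2 kept the call, and the other 5 omissions gave 0.0547 to 0.123. It was also lost with the term for Xist-high samples (0.0592) and by limma on FPKM (0.101 to 0.214). Pxdn, the peroxidase that forms the sulfilimine bond of type IV collagen, stood at 81.7 ± 4.50 and 96.5 ± 8.01 CPM (SD, n = 3 each; adjusted p = 0.195).

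Of 20 basement membrane partners 1 fell, where 0.306% of all tested genes fell. The list was centred on 0.01, with 10 above 0 and 10 below. At an unadjusted p below 0.05 there were 4, against 18.0% of all tested genes. DESeq2 called 2 higher and 1 lower, with 3.31 and 2.69% of all genes. In 3 every DKO library lay above every WT library and in 1 below, with 11.4 and 11.8% of all tested genes. Frem2 (chromosome 3, 53513938 to 53657355, minus strand), a membrane protein that anchors epithelial basement membranes, went from 112, 130.0 and 112 CPM in WT to 83.4, 84.8 and 70.8 CPM in the DKO libraries. It was 1.48-fold lower without overlap (log2 fold change -0.57, SE 0.10, edgeR adjusted p = 0.0475). The call was lost under 13 of 17 alternatives, among them without any 1 library (0.0517 to 0.159), with DESeq2 size factors (0.05001), on genes with a mean of at least 50 counts (0.0515), with the Xist term (0.103) and by limma on FPKM (0.104 to 0.214). The most abundant partner, Lamb3, which encodes a laminin chain of epithelial basement membranes, lay 0.51 higher in DKO on the log2 scale, with an SE of 0.15 and no overlap, and was not called (adjusted p = 0.153).

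Of 10 tested collagen receptors, 17 tested fibril-associated matrix genes and 14 tested genes of collagen breakdown, edgeR called 0 in each. At an unadjusted p below 0.05 there were 2, 4 and 4, against 18.0% of all tested genes. DESeq2 called 1, 2 and 3, against 6.00% of all genes. The medians were 0.11, 0.30 and 0.27. The integrin gene Itgb1 had a log2 fold change of 0.05 and an SE of 0.10, and Ddr1, the collagen receptor kinase of epithelia, of -0.12 (SE 0.09) with all DKO libraries below all WT libraries. Sparc and Lum, which bind fibrils, had 0.30 (SE 0.17) and 0.35 (SE 0.22), and the cathepsin genes Ctsl and Ctsb 0.38 (SE 0.12) and 0.20 (SE 0.11). The collagenase gene Mmp13, named after its value was seen, was at 35.1, 30.1 and 115 CPM in the WT libraries and 199, 91.4 and 259 CPM in the DKO libraries, with overlap between WT 3 and DKO 3 (log2 fold change 1.60, SE 0.57, adjusted p = 0.203).

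**Figure D5:**
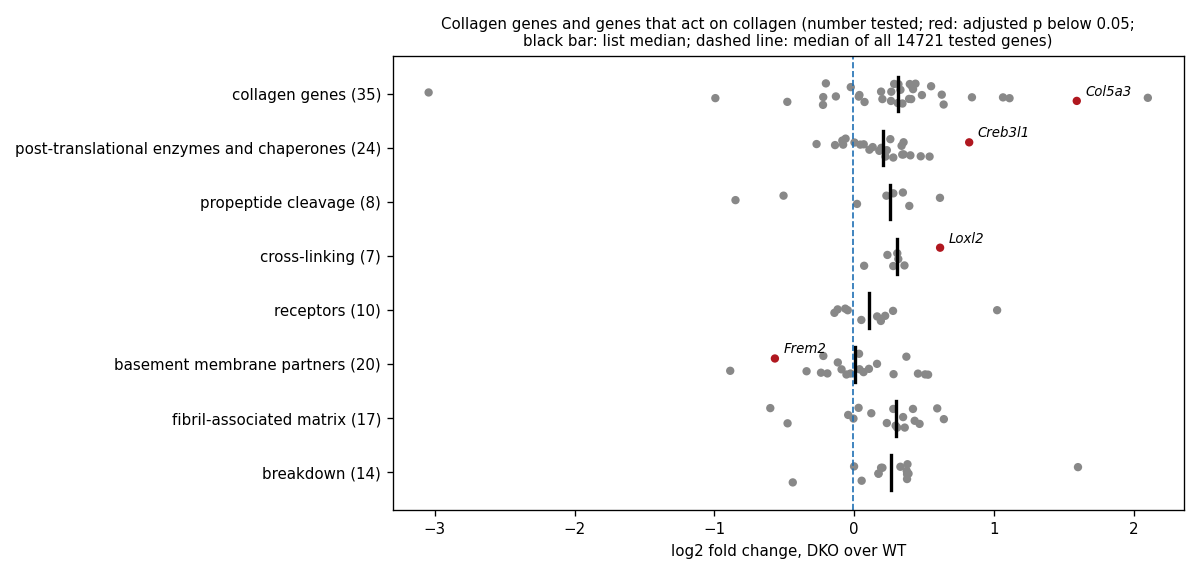
log2 fold change of DKO over WT for the tested collagen genes and the 7 lists of genes that act on collagen, 1 point per gene, with list medians as black bars and the median of all tested genes as a dashed line. Called genes are red and named: Col5a3 at 1.59, Creb3l1 at 0.82, Loxl2 at 0.62 and Frem2 at -0.57.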

How the data were processed

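The deposited counts are whole numbers per gene, not normalised, and the deposited FPKM come from Cufflinks, per the file headers. The submitters' processing notes list HTSeq, Trimmomatic 0.32, Cufflinks 2.2 and the build GRCm38, with no role. No source used here names the aligner, the annotation or the counting options. Per the labels' protocols the TruSeq RNA v2 kit was used, which does not mark strand.

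All 46603 genes entered edgeR 4.0.16 (R 4.3.3; TMM, filterByExpr, quasi-likelihood, no covariate), leaving 14721 tested, with Benjamini-Hochberg adjustment over these. A standard error is the log2 fold change over the square root of F. CPM are TMM-scaled. The test was first tested on simulated counts. Alternatives were DESeq2 1.42.0 (size factors, Wald test), total and upper-quartile scaling, other filters, limma 3.58.1 on log2(FPKM + 1) or log2(FPKM + 0.1), replicate numbers as a block, an Xist term (libraries over 100 CPM), and each library left out. Xist was at 810 and 913 CPM in WT 1 and WT 2, at 488 CPM in DKO 1 and at most at 1.22 CPM in the other libraries. The Xist-high libraries were thus unevenly split between the groups.

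Members, lists and the naming rule were chosen with earlier results of these data known. The rule gives every member, and of each list the called genes and the 2 of highest FPKM; 1 gene it gives is not reported here. Positions are from GENCODE vM21 and promoters from RefSeq, both GRCm38. Replicates within a group differed beyond sampling noise (lowest chi-square per degree of freedom 14.1). No label says that they came from separate animals, so p-values measure the spread between these samples.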

Additional observations from a re-analysis of the deposited data

How the results depend on the processing

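Limits. With 3 libraries a group the precision is low, and 5 collagen genes had too few counts to be tested. Col5a3 stayed higher in DKO under all 17 alternatives, with a log2 fold change from 1.29 to 1.80, and was called in 9; the cause of the lost calls was not tested. Without a low-count filter, 4 collagen genes, 554 genes in all and 5 list genes were called. With a mean of at least 50 counts 0 collagen genes were called (Col5a3 1.59). DESeq2 called 6, 866 and 14. By limma on log2(FPKM + 1) the counts were 0, 77 and 0 (Col5a3 1.44), on log2(FPKM + 0.1) 0, 77 and 0 (1.58), and without a filter 0, 11 and 0 (1.44). With a term for Xist-high libraries 71 genes in all and 1 list gene were called. Leaving out each library gave 0 to 1 collagen genes, 21 to 335 genes in all, 0 to 3 list genes and a Col5a3 log2 fold change from 1.39 to 1.80.

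Replicate numbers 1 and 3 occur in both groups, but nothing in the labels says that they pair the samples. Same-numbered libraries deviated from their group means with correlations of 0.192 and -0.0181. With the replicate number as a block 328 genes in all were called, 132 higher and 196 lower in DKO, against 108 higher and 45 lower without it. Col5a3 was still called, and 2 list genes were called, both higher, since Frem2 was not called (log2 fold change -0.41, edgeR adjusted p = 0.130). By CPM per kilobase of exon, fibrillar genes held 48.7% in WT and 52.7% in DKO (FPKM 55.6 and 59.5%) and basement membrane genes 23.0 and 22.2% (FPKM 15.9 and 15.1%).

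For 13 uncalled collagen genes the sign turned under at least 1 alternative, with adjusted p from 0.569 to 0.996 (edgeR or limma); the cause was not tested. By total counts Col6a3 was at -0.024. By limma on FPKM Col24a1 was at -0.032 (-0.0090 with a pseudocount of 0.1) and Col6a1 at 0.014 (0.015 with 0.1). With the block Col2a1 was at 0.15, Col11a2 at 0.54, Col4a4 at 0.24, Col6a2 at -0.15 and Col12a1 at -0.051, and with the Xist term Col11a2 was at 0.29. Over the libraries left out, the log2 fold changes ranged from -0.28 to 0.24 for Col6a1, -0.19 to 0.38 for Col6a2, -0.13 to 0.19 for Col6a3, -0.28 to 0.40 for Col9a3, -0.39 to 1.77 for Col22a1, -0.033 to 0.51 for Col23a1, -0.87 to 0.69 for Col11a2, -0.40 to 0.91 for Col25a1, -0.83 to 0.16 for Col2a1, -0.39 to 0.040 for Col4a4, -0.060 to 0.42 for Col24a1 and -1.45 to 0.52 for Col20a1. Beside Col5a3, 37 single genes were followed, the uncalled collagen genes together with Creb3l1, Loxl2 and Frem2. Of their other values, 536 kept direction and side of the threshold, 28 lost a call and 8 gained one. The lost calls were all those of Creb3l1, Loxl2 and Frem2 (6, 9 and 13), and the gained calls were of collagen genes.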
